A study of Rattus norvegicus with 3 samples.

Results

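The 6 connexin genes *Gja1*, *Gja3*, *Gja4*, *Gja5*, *Gjb2* and *Gjc1* were described in cultured tendon stem/progenitor cells (TSPCs) from rat Achilles tendon. The members were chosen by gene symbol with earlier results of these same arrays known, so every signal and ratio below is a description and none was tested. They are 6 of 14217 genes that the platform's table names singly, and 10 of 31042 probe sets (groups of short probes for one transcript) carry their names. *Gja1* has 3 probe sets, *Gja3* and *Gja5* have 2 each, and *Gja4*, *Gjb2* and *Gjc1* have 1 each.

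TSPCs-1d, TSPCs-7d and TSPCs-56d came from Sprague-Dawley rats aged 1, 7 and 56 days. For each age, tendons of at least 2 animals were mixed, and cells that grew out of the tissue were seeded sparsely to form colonies and pooled as a polyclonal culture. All cultures grew in low glucose DMEM with fetal bovine serum and were used at passage 2, with no treatment and no gene altered in any group. There was 1 Affymetrix Rat Genome 230 2.0 array per age, so no difference between ages has a replicate check, no p-value can be given, and age cannot be told apart from culture or array. The sex of the animals is not given in the sources used here.

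Connexins are membrane proteins that span the membrane several times and assemble into rings, the hemichannels. Hemichannels of neighbouring cells dock to form a gap junction channel, through which ions and small metabolites pass from cell to cell. The family is named by protein mass, as in Cx43 for the product of *Gja1*, and its alpha, beta and gamma subfamilies give the gene symbols their letter. In tendon, rows of cells between the collagen fibres are coupled by gap junctions, in which Cx43 is the best known connexin. *Gja5* encodes Cx40, a connexin of the atria, of the fast conduction system of the heart and of arterial endothelium.

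The windows before the start of *Gja5*, whose signal differed most between the arrays, and of *Gja1*, whose signal differed little, are shown to let their sequences be compared. Both are taken from RefSeq on rat build GRCr8 and hold the 250 bases before the gene's annotated start, 5′ to 3′. The *Gja5* window is chr2:187290977-187291226 and the *Gja1* window is chr20:36302314-36302563, both on the plus strand. Capitals mark matches, on either strand, to the TATA box (TATAAA), the CCAAT box (CCAAT), the GC box (GGGCGG) and the AP-1 site (TGANTCA), motifs without overlap in these windows.
*Gja5*: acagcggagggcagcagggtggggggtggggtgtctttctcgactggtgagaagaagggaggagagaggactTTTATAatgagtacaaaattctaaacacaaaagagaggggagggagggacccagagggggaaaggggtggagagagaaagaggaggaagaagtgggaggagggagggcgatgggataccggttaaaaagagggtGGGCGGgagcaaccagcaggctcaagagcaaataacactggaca
*Gja1*: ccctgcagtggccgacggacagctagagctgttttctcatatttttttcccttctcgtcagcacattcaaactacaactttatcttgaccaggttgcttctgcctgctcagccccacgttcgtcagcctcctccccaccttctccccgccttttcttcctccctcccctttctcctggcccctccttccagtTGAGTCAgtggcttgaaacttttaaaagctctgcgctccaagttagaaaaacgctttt

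The *Gja5* window held 1 match to the TATA box, on the reverse strand and 178 bases before the start, and 1 match to the GC box, 44 bases before it. The *Gja1* window held 1 match to the AP-1 site, 58 bases before its start. Over 33469 windows of this length, 12.9% held the TATA box letters, 34.0% the CCAAT box, 30.5% the GC box and 6.34% the AP-1 site. The table gave such a window for 5 of the 6 genes. *Gja4* and *Gjb2* had 1 GC box match each, *Gja3* had no match to any of the motifs, and *Gjc1* was without an entry. The share of G and C was 54.8% in *Gja5* and 51.2% in *Gja1*, against 63.2% in *Gja4*, 67.2% in *Gjb2* and 74.4% in *Gja3*, and the median of all windows was 51.2%. A match is a run of letters and not a shown binding site.

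*Gja5* was the member whose signal differed most between the arrays, as read through its brighter probe set. Its brighter probe set had a signal of 1715 on the TSPCs-1d array, 522 on that of TSPCs-7d and 107 on that of TSPCs-56d, in intensity units on a linear scale. The signal was thus highest in the youngest culture and lower at each later age. TSPCs-7d had a 3.29-fold lower signal than TSPCs-1d and a 4.87-fold higher one than TSPCs-56d, and TSPCs-56d a 16.0-fold lower one than TSPCs-1d. On the log2 scale these ratios were -1.72, 2.28 and -4.00, and every further triple of ratios keeps that order of comparisons, named by both ages as 7d/1d, 7d/56d and 56d/1d. In TSPCs-56d the signal lay just under the median of all signals, 110.1, and above 48.9, the 25th percentile, under which a signal is called dim here. Fewer cells with *Gja5* RNA and less of it per cell cannot be told apart in such bulk RNA.

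The other probe set of *Gja5* did not show this difference. It was dim on every array, with signals of 37.6, 35.5 and 31.95 at 1, 7 and 56 days, a log2 ratio of -0.23 between the last and the first. The order of the ages was the same in both probe sets, but nothing is read from it, as these signals were all dim. The step from first to last was smaller than the noise guide given below for *Gja1*, which came from brighter probe sets. Averaged on the log2 scale over both probe sets of *Gja5*, the 7d/1d ratio was -0.90 and no longer past 2-fold. Why the probe sets differ was not tested.

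Among all 14217 genes, each read through its probe set of highest mean signal, *Gja5* stood near the end of the order. For 56d/1d it was number 5 from the lowest. It was number 41 from the lowest for 7d/1d and number 17 from the highest for 7d/56d. These ranks share arrays and describe 3 arrays, not 3 ages in general.

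**Figure D1:**
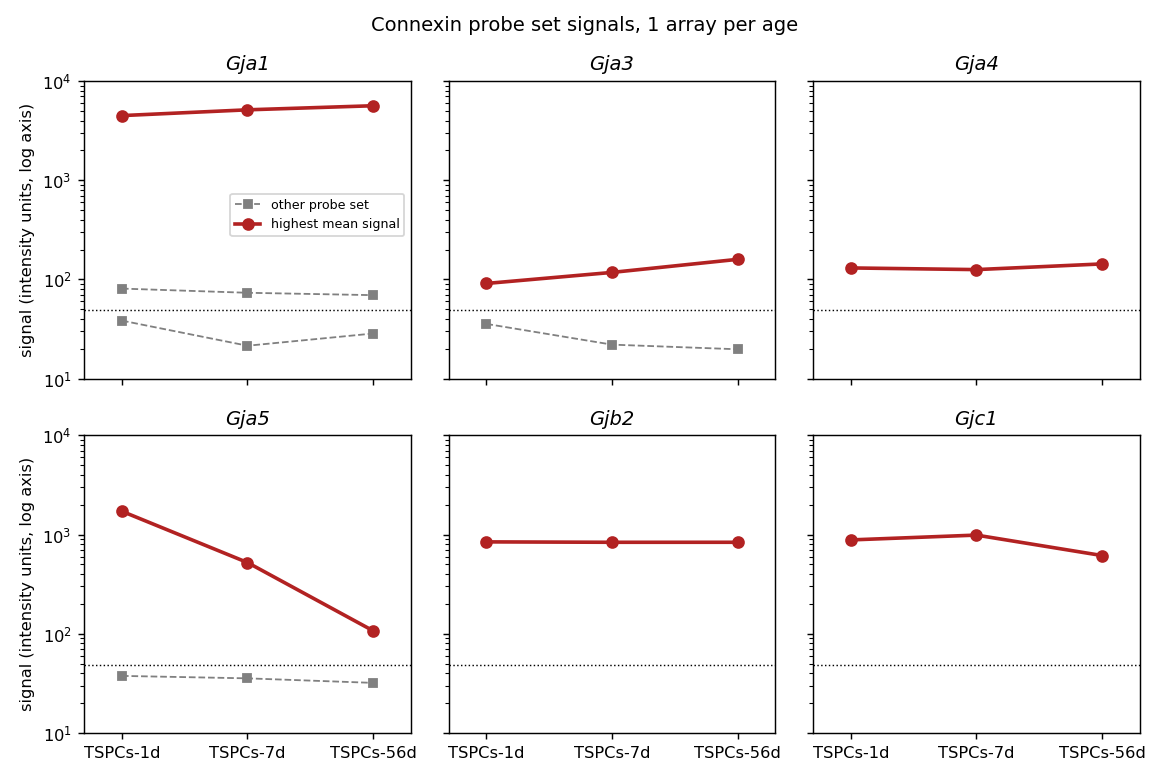
Signal (intensity units, log axis) of each of the 10 connexin probe sets for TSPCs of 3 ages (1d, 7d and 56d, evenly spaced), 1 panel per gene and 1 array per age. Red circles are the probe set of highest mean signal, grey squares the other probe sets, and the dotted line the 25th percentile of all signals (48.9). The red line of *Gja5* goes from 1715 to 107, while that of *Gjb2* stays between 835 and 843.

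*Gja1*, the gene of Cx43, differed little between the ages. Its bright probe set had a signal of 4483, 5126 and 5635 at 1, 7 and 56 days. The order was thus the reverse of that of *Gja5*, but the steps were small, as the 7d/1d ratio was 1.14-fold and the 56d/1d ratio 1.26-fold. The 56d/1d log2 ratio was 0.33, and 30.9% of all genes were at least as far from 0. As a guide to the noise of a probe set, the 1714 genes were used of which exactly 2 probe sets were brighter than the median one. In 10% of these genes the pair disagreed in log2 ratio by more than 0.39 (7d/1d), 0.44 (7d/56d) and 0.53 (56d/1d). Both probe sets of a pair were read on the same arrays, so the guide leaves out variation between cultures and arrays. A ratio beyond it is thus not shown to be a difference between ages. All ratios of the bright *Gja1* probe set lay within these values, so its ages have no readable order.

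The weaker probe sets of *Gja1* were highest in TSPCs-1d. One had signals of 80.8, 73.3 and 69.4 at 1, 7 and 56 days. The other was dim on all arrays, with 38.4, 21.5 and 28.5 in the same order. Averaged over its 3 probe sets, the log2 ratio of *Gja1* was -0.26 (7d/1d) and -0.11 (56d/1d), of the opposite sign to the bright probe set. No direction can therefore be given for *Gja1*.

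*Gjb2* encodes Cx26, a connexin of the cochlea, the skin and the liver. Its single probe set had a signal of 843, 835 and 835 at 1, 7 and 56 days. The 3 arrays were thus within 1.01-fold of each other, and 96.4% of all genes had a 56d/1d log2 ratio at least as far from 0. The signal was well above the dim level at every age.

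*Gjc1* encodes Cx45, a connexin of the early heart, of the cardiac conduction system and of smooth muscle. Its signal was 882, 987 and 614 at 1, 7 and 56 days. Its 7d/1d ratio was 0.16 on the log2 scale, within the noise guide. TSPCs-7d was 1.61-fold higher than TSPCs-56d, a log2 ratio of 0.68 that exceeded the guide of 0.44 and that 7.84% of genes equalled or exceeded in size. TSPCs-56d was 1.44-fold lower than TSPCs-1d, a log2 ratio of -0.52 at the edge of the guide of 0.53. The lowest array was thus that of TSPCs-56d, as for *Gja5*, but no comparison of *Gjc1* passed 2-fold, and a single probe set leaves no second reading.

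*Gja3* and *Gja4* were faint. *Gja3* encodes Cx46, a connexin of the lens fibre cells, and its brighter probe set had a signal of 91.0, 118 and 159 at 1, 7 and 56 days. Its 56d/1d ratio was 1.75-fold, 0.81 on the log2 scale. Its dim probe set went the other way, with 35.6, 22.0 and 19.8, and the mean log2 ratio of both was -0.02. *Gja4* encodes Cx37, which is found in arterial endothelium and at the surface of the oocyte. It had signals of 131, 126 and 143 at 1, 7 and 56 days, with log2 ratios between -0.19 and 0.13, all within the noise guide. Detection calls were not analysed here, so these signals do not show whether either RNA was present.

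Read through the probe set of highest mean signal, all 6 genes lay above the median of mean signal, 111.1, as did 6 of their 10 probe sets. Of the other 4 probe sets, 3 were dim on every array. That median is over all probe sets, and taking the brightest of several favours a place above it. Nothing is read from counts above or below it, here or in the lists that follow. *Gja5* was the only one of the 6 past 2-fold in any comparison. In the 7d/1d comparison 1 of 6 was more than 2-fold lower and 0 were higher, against 1.08% and 1.87% of all genes. In 7d/56d, 1 was higher and 0 were lower, against 2.10% and 1.72%. In 56d/1d, 1 was lower and 0 were higher, against 1.77% and 2.00%. The genes were chosen on these contrasts, so nothing is read from these counts. A cutoff of 3-fold, past which lay 0.689%, 1.10% and 1.55% of all genes in these comparisons, left *Gja5* in each. A cutoff of 1.5-fold, past which lay 8.15%, 10.4% and 11.4%, added *Gjc1* in 7d/56d and *Gja3* in 56d/1d. The median log2 ratio of the 6 genes was 0.07, -0.07 and 0.06, beside 0.01, -0.05 and 0.06 over all genes.

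**Figure D2:**
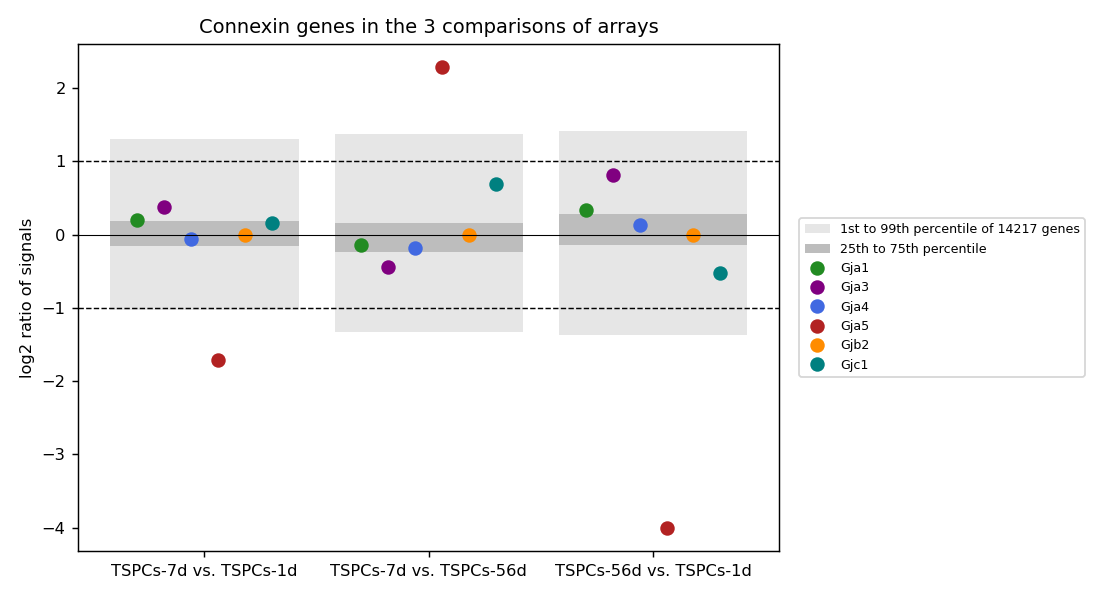
Log2 ratio of signals of the 6 connexin genes (coloured points, probe set of highest mean signal) in the 3 comparisons of arrays. Light and dark grey bands span the 1st to 99th and the 25th to 75th percentile of all 14217 genes, and dashed lines mark 2-fold. *Gja5* lies outside the light band in each comparison, at -1.72, 2.28 and -4.00, and the other genes lie inside it.

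In the RefSeq table of rat genes, *Gja3* and *Gjb2* lie on the same chromosome with 1 gene between them, and *Gjb6* follows *Gjb2* directly. *Gjb6*, the gene of Cx30, was dim with signals of 11.5, 11.3 and 11.6 at 1, 7 and 56 days, beside the bright and level *Gjb2*.

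Of the connexin genes outside the 6, 5 were measured, and all 5 lay under the median of mean signal. *Gjb1* encodes Cx32, a connexin of hepatocytes and Schwann cells that is also known from tendon. Its signal was 58.3, 80.4 and 77.9 at 1, 7 and 56 days, above the dim level on each array. The log2 ratios of *Gjb1* were 0.46, 0.05 and 0.42. That of 7d/1d was larger than the noise guide of 0.39, but the guide came from brighter probe sets and does not cover *Gjb1*. The others, *Gja6*, *Gjb5*, *Gjb6* and *Gjd2*, had signals between 11.3 and 54.8. Of these 5 genes, 0 passed 2-fold in any comparison. Their median log2 ratios were 0.33, -0.03 and 0.37, and 3 of the 5 were dim on all arrays.

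The pannexins form channels of a similar shape in the membrane of single cells. *Panx1*, which releases ATP, had signals of 183, 149 and 91.4 at 1, 7 and 56 days in its brightest probe set. The last was 2.002-fold lower than the first, at the edge of the cutoff, and the order of the ages was that of *Gja5*. Its other probe sets were faint, with 52.7, 63.4 and 57.0 in one and 34.2, 23.7 and 27.0 in the other, and the mean log2 ratio of the 3 was -0.41. *Panx3*, known from bone and cartilage, was dim at every age, with signals between 33.9 and 39.0.

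The genes whose pattern over the 3 arrays was nearest to that of *Gja5* were *Fxyd6*, *Car3* and *Mdk*. Nearness was the Euclidean distance of log2 signals, each gene centred on its mean over the 3 arrays, among genes above the median of mean signal. *Fxyd6*, a regulator of the sodium pump, was at a distance of 0.32, with signals of 853, 349 and 67.0 at 1, 7 and 56 days. *Car3*, a carbonic anhydrase of muscle and fat, was at 0.47, with 5356, 2536 and 463. *Mdk*, the growth factor midkine, was at 0.54, with 670, 317 and 67.3. All 3 were highest in TSPCs-1d and lowest in TSPCs-56d, which follows from their choice by nearness to *Gja5* and is no separate result. *Car3* had the same order in its weaker probe set (755, 321 and 159). *Gja5* differed from each of them by a larger step between TSPCs-1d and TSPCs-7d, as their log2 ratios there were -1.29, -1.08 and -1.08.

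**Figure D3:**
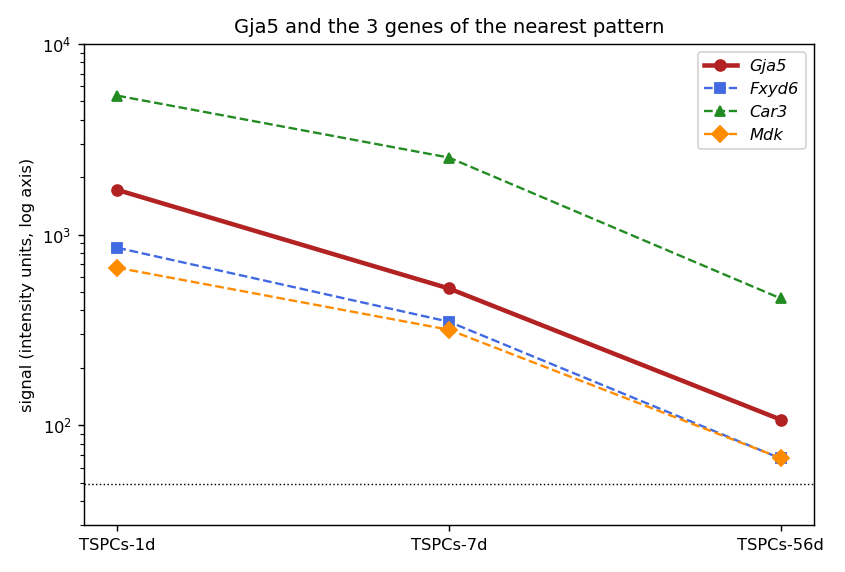
Signal (intensity units, log axis) of *Gja5*, *Fxyd6*, *Car3* and *Mdk* for TSPCs of 3 ages (1d, 7d and 56d, evenly spaced), 1 array per age, each through its probe set of highest mean signal. The dotted line is the 25th percentile of all signals (48.9). All 4 lines go down at each step, that of *Gja5* from 1715 to 522 and 107, and the other 3 genes were chosen for likeness to it.

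Gap junctions are held in place by scaffolds and by adherens junctions, the cadherin contacts that form first. Of 19 measured genes of these partners (21 listed), 0 were past 2-fold higher and 1 lower in 7d/1d, 2 higher and 1 lower in 7d/56d, and 1 higher and 2 lower in 56d/1d. The shares of all genes past 2-fold were those given for the connexins. The median log2 ratios were -0.06, -0.07 and -0.05, beside 0.01, -0.05 and 0.06 over all genes. *Tjp1*, the gene of ZO-1, which binds the tail of Cx43, was level at 2161, 2158 and 2145 at 1, 7 and 56 days. *Ctnnb1*, the gene of beta-catenin, had 7621, 7300 and 7034.

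*Cdh2*, the gene of N-cadherin, was lowest in TSPCs-56d. Its brightest probe set had signals of 1083, 1022 and 450 at 1, 7 and 56 days, and a second probe set went the same way (723, 607 and 266). The third, fainter one was level (107, 125 and 116), and the mean log2 ratio of the 3 was 0.83 in 7d/56d and -0.86 in 56d/1d, neither past 2-fold. *Ccn3*, the gene of a matrix protein that binds Cx43, was lowest in TSPCs-7d, with 796, 314 and 2020. *Cav3*, a caveolin of muscle, had 245, 191 and 92.5, and was not past 2-fold in 7d/56d with a floor at the median signal (0.80 on the log2 scale). *Cdh11*, the cadherin of mesenchymal cells, was not past 2-fold, with 3534, 3972 and 3075.

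Cx43 turns over within hours, and kinases that phosphorylate its tail and ubiquitin ligases govern its assembly and removal. Of 29 measured genes of these kinases and trafficking factors (34 listed), 1 was past 2-fold higher in 7d/1d and 1 in 7d/56d, 0 were lower in either, and 0 passed in 56d/1d. Both times the gene was *Cdk1*, the mitotic kinase, which phosphorylates Cx43 in dividing cells, with signals of 1751, 3961 and 1663 at 1, 7 and 56 days. The medians of the list were -0.06, -0.06 and -0.04. *Src*, whose product loosens gap junctions, was not past 2-fold, with 1147, 1101 and 1258, nor was *Nedd4*, a ubiquitin ligase of Cx43, with 7970, 7515 and 7072.

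**Figure D4:**
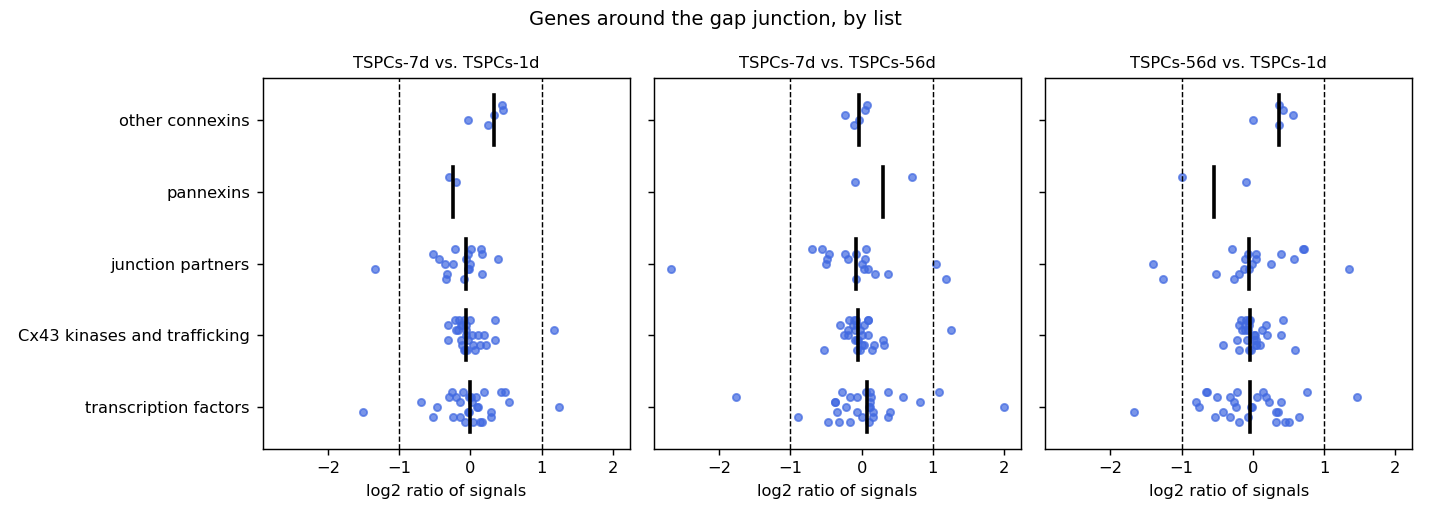
Each point is a gene's log2 ratio of signals (probe set of highest mean signal), in 5 lists around the gap junction and for each pair of arrays. Black bars are the lists' medians and dashed lines stand at 2-fold. The medians of the junction partners, the Cx43 kinases and the transcription factors lie between -0.07 and 0.08.

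Of 30 measured transcription factors (32 listed) linked with connexin genes in the heart, vessels or bone, 1 was past 2-fold higher and 1 lower in 7d/1d, 2 higher and 1 lower in 7d/56d, and 1 higher and 1 lower in 56d/1d. The medians were 0.00, 0.08 and -0.05. *Irx3*, a homeobox factor of the ventricular conduction system, where Cx40 is made, had signals of 747, 264 and 235 at 1, 7 and 56 days in its brightest probe set. A second probe set of *Irx3* went the other way (121, 127 and 216), the third was dim, and the mean log2 ratio of the 3 was -0.56 in 7d/1d and -0.38 in 56d/1d, neither past 2-fold.

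*Hey2*, a Notch target of arteries, was highest in TSPCs-7d, with signals of 134, 320 and 79.5 at 1, 7 and 56 days. *Klf4*, a zinc finger factor, was highest in TSPCs-56d, with 271, 219 and 743. *Dlx5*, a homeobox factor of bone, had 110, 148 and 69.5, and was not past 2-fold with that floor (0.42 in 7d/56d). None of these 3 orders was that of *Gja5*. Other factors of the list, not past 2-fold, did have that order in their brightest probe set, among them *Klf2*, *Fosl1* and *Jun*, and still others did not. Nothing is read from an order over so few arrays. *Tbx5* and *Nkx2-5*, which activate *Gja5* in the heart, were not past 2-fold, and *Tbx5* was dim on every array (17.8, 18.8 and 12.6), while *Nkx2-5* had 240, 238 and 302.

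As Cx40 and Cx37 are known from arteries, the markers of vessel cells are given beside *Gja5*. Of 13 measured endothelial markers, 0 passed 2-fold in any comparison, 6 were dim on all arrays and 0 were at a signal of 0. Their summed signal was 1073, 1079 and 1260 at 1, 7 and 56 days, from 18.0 to 391 for single genes. *Pecam1*, the marker CD31, was dim with 23.3, 18.0 and 22.9. The shares of all genes past 2-fold given for the connexins apply to every list here. The share of all genes dim on every array is not given, so nothing is read from the dim counts of any list. They do not show that a cell type was absent. Of 16 markers of smooth muscle and pericytes, 1 was past 2-fold lower in 7d/1d, 1 lower in 7d/56d, and 1 higher and 1 lower in 56d/1d. The summed signals of this list were 39781, 32062 and 41815, from 35.5 to 15531 for single genes, with 0 at a signal of 0. Most of this sum came from *Tagln*, *Acta2* and *Cnn1*. The list's median log2 ratios were -0.26, -0.18 and -0.01, beside 0.01, -0.05 and 0.06 over all genes.

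*Mcam*, a surface protein of pericytes and endothelium, was the marker of the latter list past 2-fold lower in 7d/1d and in 56d/1d. It had signals of 2182, 930 and 927 at 1, 7 and 56 days, and 489, 219 and 202 in its other probe set. *Mcam* thus differed from *Gja5* by being level between TSPCs-7d and TSPCs-56d. *Myh11*, the smooth muscle myosin, was highest in TSPCs-56d (2186, 1671 and 5067). The part of vessel cells in the *Gja5* signal was not tested.

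A few markers of cartilage and bone cells were, like *Gja5*, past 2-fold lower in TSPCs-56d than in TSPCs-1d, but others were not. The median 56d/1d log2 ratio was 0.08 over the chondrocyte list and -0.25 over the osteoblast list, beside 0.06 over all genes. Of 7 measured chondrocyte markers, 0 passed 2-fold in 7d/1d, 2 were higher in 7d/56d and 2 lower in 56d/1d. *Acan*, the gene of the cartilage proteoglycan aggrecan, had signals of 8588, 8224 and 2874, and *Hapln1*, the link protein that binds aggrecan to hyaluronan, had 399.8, 427.9 and 119.8. The list's summed signal was 9445, 9114 and 3507, from 25.9 to 8588 for single genes, and most of it came from *Acan*. In this list 1 marker was dim on all arrays and 0 were at a signal of 0. *Col2a1*, the cartilage collagen, had 66.9, 61.6 and 72.3. *Acan* and *Hapln1* thus differed from *Gja5* in being level between TSPCs-1d and TSPCs-7d. Of 6 measured osteoblast markers, 1 was past 2-fold lower in 7d/1d and in 56d/1d and 0 passed otherwise. It was *Dmp1*, a matrix gene of osteocytes and dentine, with signals of 230, 75.1 and 69.1 at 1, 7 and 56 days. The summed signals of this list were 7520, 9877 and 7849, mostly from *Spp1* (6932, 9493 and 7486).

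Of 12 measured tendon markers, 3 were past 2-fold higher and 0 lower in 7d/1d, 1 higher and 1 lower in 7d/56d, and 3 higher and 1 lower in 56d/1d. Their summed signal was 68095, 72297 and 77853 at 1, 7 and 56 days, which was not the order of *Gja5*. Most of this sum came from the bright collagen genes *Col1a1*, *Col1a2* and *Col3a1*, so it does not describe the list as a whole. Single markers went several ways. *Tnmd*, the gene of tenomodulin, had the order of *Gja5*, with 543, 351 and 158 at 1, 7 and 56 days. *Dcn*, the gene of the small proteoglycan decorin, had 22.4, 49.4 and 607, and was dim in TSPCs-1d. *Dcn* was 1 of the 3 markers past 2-fold higher in 7d/1d. With dim signals raised to the dim level, that ratio was 1.01-fold, while its 56d/1d ratio was still 12.4-fold. *Thbs4*, a thrombospondin of tendon matrix, had 76.5, 340 and 348, and *Tnc*, the gene of tenascin-C, had 5280, 7303 and 11185. *Fmod*, the gene of fibromodulin, was highest in TSPCs-7d, with 271, 774 and 408. *Scx*, the tendon factor scleraxis, was not past 2-fold, with 2255, 2578 and 2569, while *Comp*, a cartilage and tendon matrix gene, was dim on 2 arrays (35.8, 68.8 and 40.7). By mean signal over the 3 arrays, 11 of 12 lay above the median, among them *Dcn*, which was bright in TSPCs-56d alone. These signals do not by themselves identify the tissue.

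Of 10 measured haematopoietic markers, 3 were dim on all arrays and 4 lay above the median of mean signal. *Ptprc*, the leukocyte marker CD45, was dim (20.8, 24.96 and 30.6), whereas *Aif1*, a macrophage gene, was above the dim level (209, 188 and 267). The list's summed signal was 892, 841 and 1037, and 1 of its genes, *Cd53*, was past 2-fold lower in 7d/56d, with 31.9, 24.5 and 57.8. *Cd53* was dim on 2 arrays, and with dim signals raised to the 25th percentile this ratio was 1.18-fold. Of 6 surface markers of mesenchymal stem cells, 1 was dim on all arrays, and *Nt5e*, the marker CD73, was past 2-fold higher in 56d/1d and lower in 7d/56d, with 41.9, 49.3 and 110. Of 10 skeletal muscle markers, *Acta1*, the skeletal alpha-actin, was past 2-fold lower in 7d/1d and 7d/56d and higher in 56d/1d (1772, 855 and 5327), and *Myl1*, a myosin light chain, lower in 7d/56d (81.3, 43.7 and 92.0). *Myl1* was dim in TSPCs-7d, and its ratio was 1.88-fold with dim signals raised in the same way. The part of cells with any of these markers in the *Gja5* signal was not tested.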

How the data were processed

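Total RNA of 3 TSPC cultures was measured on 1 array per age. The deposited values are linear intensity signals of probe sets, which the authors normalized. The methods describe MAS5 as well as RMA, whereas MAS5 alone stands in the submitters' notes, so which gave the values is not known. The methods and the sample labels also differ in RNA amount and labelling kit. The number of arrays limits the precision.

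Signals were used as deposited, with medians of 107 to 114. A ratio of a pair of arrays over 2 or under 0.5 was counted as past the cutoff, as in the methods. The probe set of highest mean signal stood for a gene. Of 31042 probe sets, 20826 have a single gene name, 436 several and 9780 none. Members, gene lists and the naming rule were chosen with earlier results of these data known, and the motifs and the genes named for comparison after the signals were seen. The rule names all members, the 3 genes nearest in pattern to each member past 2-fold, and genes past 2-fold or known connexin partners from the lists around the gap junction; marker genes were named after their signals were seen. Alternatives were scaling by the median, quantile normalization, loess centring (span 0.2), floors at the 25th percentile or median, a pseudocount of 32, the mean or sum over probe sets, and cutoffs of 1.5 and 3. The ratio calculation was tested on simulated arrays with planted changes. That test left out the mean and sum over probe sets. Its noise was smaller than the difference seen between probe sets of a gene, so it checks the calculation only. Python 3.11.15, numpy 2.4.6, pandas 2.3.3 and statsmodels 0.14.6 were used.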

Additional observations from a re-analysis of the deposited data

How the results depend on the processing

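The log2 ratios of the 6 connexin genes in 3 comparisons were recomputed under 8 alternatives. Of these 144 values, 139 kept their side of 2-fold and moved by less than the SD of the difference between probe sets of a gene (0.28, 0.32 and 0.36 in the order 7d/1d, 7d/56d and 56d/1d) or, if past 2-fold, stayed past it. The other 5 came from the mean over all probe sets, which gives dim ones equal weight. Under it, *Gja5* was -0.90 in 7d/1d and 0 connexin genes were past 2-fold there. *Gja1* was -0.26 in 7d/1d and -0.11 in 56d/1d, and *Gja3* -0.16 and -0.021. The 139 include values that could not move, so their number does not measure stability. The floor at the dim level left every connexin ratio unchanged, as none of the brightest probe sets was dim. The mean and the sum over probe sets could alter only *Gja1*, *Gja3* and *Gja5*, as *Gja4*, *Gjb2* and *Gjc1* have 1 probe set each. Over all alternatives, *Gja5* lay between -1.74 and -0.90, between 1.22 and 2.36, and between -4.10 and -2.12. A cutoff of 1.5-fold gave 2 connexin genes in 7d/56d and 2 in 56d/1d. For the ratios of other named genes, added after the data were seen, 294 values met the same rule, again including some that could not move. A further 13 were no longer past 2-fold, all 13 for *Cav3*, *Cdh2*, *Dlx5*, *Irx3* and *Panx1*. Another 5, not past 2-fold, moved further (*Dlx5*, *Hey2*, *Irx3* and *Panx1*), and 0 past 2-fold changed sign. No array could be left out and no paired analysis was possible because each age has 1 array.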
